A study of Mus musculus with 12 samples.

Results

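FOXO factors, a set of their target genes and the muscle ubiquitin ligases of atrophy were examined in C2C12 myotubes given the secretome product STEM. The 10 genes were chosen by name (Foxo1, Foxo3, Fbxo32, Trim63, Klhl24, Pik3ip1, Txnip, Sesn1, Ccng2 and Irs2) from the 55487 Ensembl genes of the deposited count table, and each matched a single protein-coding gene of the GENCODE annotation of GRCm38. All 10 passed the filter on low counts, with between 175 and 5750 counts per library. C2C12 is a mouse myoblast line that fuses into multinucleated myotubes once serum is lowered. Every culture was differentiated for 5 days in DMEM with 2% horse serum and was then kept for 24 h in DMEM with 4% horse serum (control, libraries 1 to 6) or with 4% STEM (libraries 7 to 12), with penicillin and streptomycin throughout. STEM is a solution free of cells that holds proteins, amino acids, vitamins and minerals. It contains the factors that human embryonic stem cells secrete once they are partially differentiated. STEM replaced the horse serum, so that the addition of STEM and the withdrawal of serum cannot be told apart. Nothing in the labels says that the libraries of a group came from separate experiments, and p-values measure only the spread between these libraries.

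FOXO proteins are transcription factors of the insulin and IGF pathway. When insulin or IGF signals through IRS proteins, PI3K and AKT, AKT phosphorylates FOXO proteins and keeps them out of the nucleus; when the signal falls, they enter the nucleus and switch on genes for protein breakdown, autophagy, cell cycle arrest and feedback on the pathway itself. In skeletal muscle they are best known for inducing Fbxo32 (atrogin-1) and Trim63 (MuRF1), the E3 ubiquitin ligases that rise in most forms of muscle atrophy. Their activity is set mainly by phosphorylation and location, which the RNA level of the factors does not report.

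Libraries held between 13285472 and 24536264 counts. Values per library are CPM, a gene's share of the library's TMM-normalized total, and the quasi-likelihood test of edgeR was applied to the 14175 genes that passed the filter, with p-values adjusted over all of them by the Benjamini-Hochberg method. Horse serum library 6 stood apart from the other 11 libraries, at -53.3 on the second principal component against values from 0.22 to 11.8. On the first component it was at 11.2, nearer to the STEM libraries (15.5 to 28.6) than to the other horse serum libraries (-35.5 to -24.6). The summed level of 15 myotube markers was 13250 CPM in library 6, between 22860 and 25480 CPM in the other horse serum libraries and between 20050 and 26680 CPM with STEM. The summed level of 6 proliferating myoblast markers was 951 CPM in library 6 and between 603 and 885 CPM in the other 5, and it was between 469 and 551 CPM with STEM. Of 8 markers of leukocytes, endothelial cells and adipocytes, Adgre1 and Plin1 were at 0 counts in every library and Ptprc, Adipoq, Pecam1 and Cdh5 had at most 6 counts. The macrophage markers Cd68 and Csf1r had 39 to 87 and 1 to 30 counts per library (at most 4.66 and 1.23 CPM), Cd68 did not pass the test (log2 fold change 0.12, adjusted p = 0.61 in edgeR), and the summed level of the list did not exceed 5.83 CPM. The log2 fold changes of the 10 genes are therefore given with and without library 6, while the part of these marker levels in them was not tested.

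Of the 10 genes, 8 passed an adjusted p of 0.05 in the comparison of the media, 7 of them lower and 1 higher with STEM. Of all tested genes 36.4% were called, 17.4% lower and 18.9% higher. The genes that fell were Txnip, Pik3ip1, Trim63, Sesn1, Klhl24, Irs2 and Ccng2, and the gene that rose was Foxo1. Foxo3 and Fbxo32 did not pass the test. The median log2 fold change of the 10 genes was -0.71, against 0.01 over all tested genes. Without library 6 the same 8 genes were called in the same directions, against 50.8% of all tested genes (26.3% higher and 24.5% lower). The libraries of the media did not overlap for Foxo1 (higher with STEM) and for Klhl24, Pik3ip1, Sesn1 and Irs2 (lower), or 5 of the 10 genes. Over all tested genes this held for 17.2%, with 8.68% higher and 8.52% lower.

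**Figure D1:**
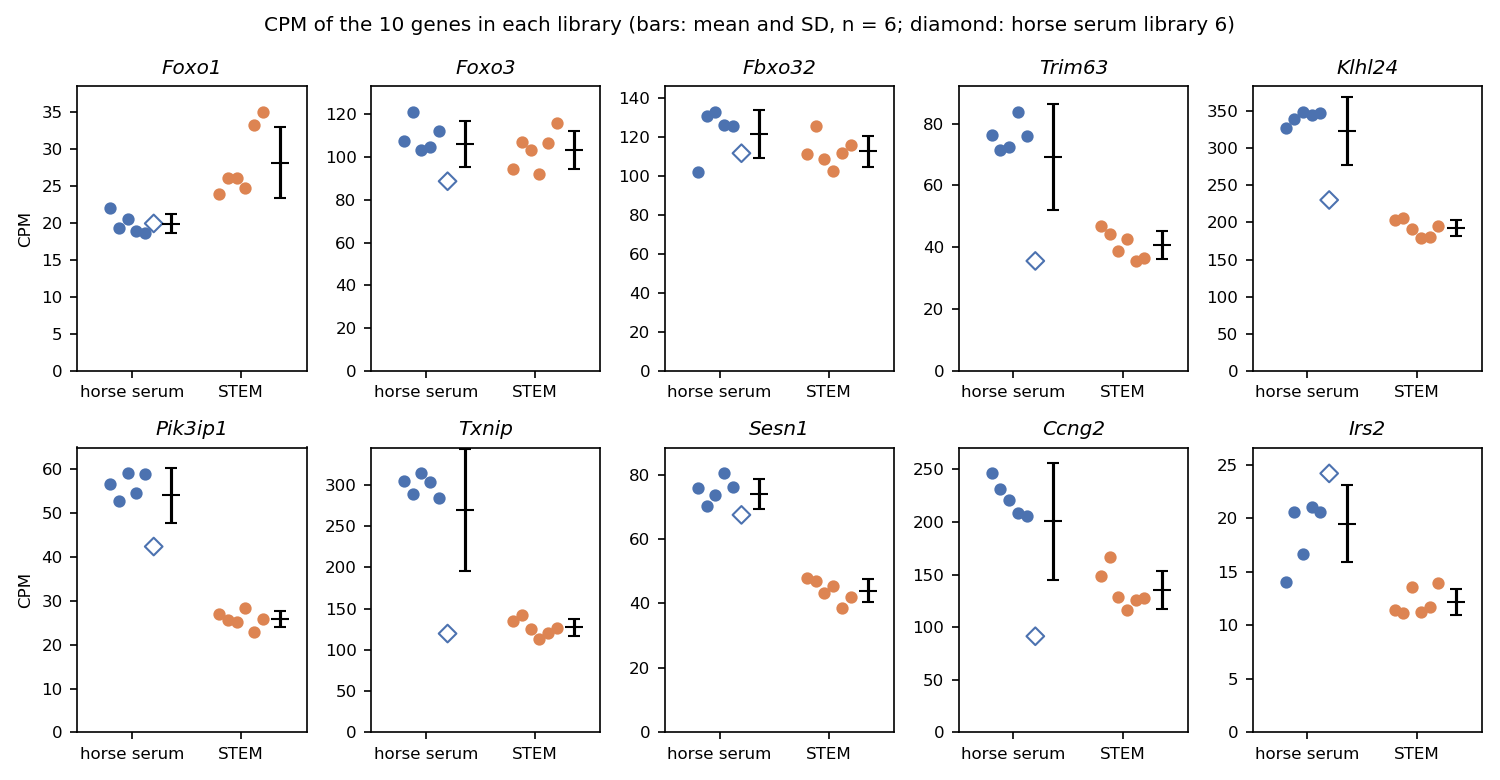
CPM of each of the 10 genes (y axis, from 0) in the 6 horse serum and 6 STEM libraries; points are libraries in number order, the diamond is horse serum library 6, and the bar beside each group is its mean and SD. For Trim63, Txnip and Ccng2 the diamond lies within or below the range of the STEM libraries (35.6, 120 and 91.4 CPM), while for Foxo1, Sesn1 and Pik3ip1 it stays clear of them.

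The transcription factors were examined first. Foxo1 (ENSMUSG00000044167, chromosome 3, 52268336 to 52353221) ranged from 18.7 to 22.0 CPM in the control libraries, around a median of 19.7 CPM. With STEM the lowest value was 23.9, the median 26.1 and the highest 35.0 CPM. Every STEM library lay above every horse serum library, and the STEM libraries themselves were uneven, with libraries 11 and 12 at 33.3 and 35.0 CPM and the other 4 at 26.1 CPM or less. Foxo1 thus rose 1.41-fold, or by 0.50 on the log2 scale (standard error 0.096, 95% interval 0.29 to 0.70, adjusted p = 9.42e-04 in edgeR). Library 6 was at 19.9 CPM for this gene, at the mean of the other 5 horse serum libraries, and the log2 fold change without it was also 0.50.

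Foxo3 (ENSMUSG00000048756, chromosome 10, 42181841 to 42276755) averaged 106 ± 10.8 CPM in the controls and 103 ± 8.86 CPM in STEM-treated myotubes (SD, n = 6). The groups overlapped over most of their range, 88.8 to 121 CPM against 92.1 to 116 CPM. Its log2 fold change was -0.04, with a 95% interval from -0.19 to 0.11 (adjusted p = 0.681 in edgeR), and it was -0.09 without library 6 (adjusted p = 0.204). The rise of Foxo1 differed from the value of Foxo3 when the difference was tested itself. The log2 ratio of Foxo1 to Foxo3 within a library went from -2.41 ± 0.19 with horse serum to -1.88 ± 0.15 with STEM (SD, n = 6, adjusted p = 0.00649 over 6 gene pairs in a two-sided exact permutation test).

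The other members of the family moved in both directions. Foxo4, which is regulated by AKT like Foxo1 and Foxo3, fell from 35.8 ± 4.73 CPM to 24.2 ± 1.27 CPM (SD, n = 6, log2 fold change -0.56, adjusted p = 1.35e-04 in edgeR). The log2 ratio of Foxo1 to Foxo4 rose by 1.03 (exact permutation test, two-sided, adjusted p = 0.00649, n = 6 per group). Foxo6 rose from 10.6 ± 1.57 CPM to 15.2 ± 1.05 CPM (log2 fold change 0.53, adjusted p = 6.97e-04 in edgeR). Per kilobase of merged exons, the scale on which levels of different genes can be set side by side, Foxo3 was the most abundant factor in both groups (14.1 ± 1.42 CPM per kb with horse serum and 13.7 ± 1.17 with STEM, SD, n = 6). Foxo4 followed at 10.3 ± 1.36 and 6.95 ± 0.36 CPM per kb, then Foxo6 at 4.06 ± 0.60 and 5.83 ± 0.40, and Foxo1 was lowest at 2.30 ± 0.14 and 3.25 ± 0.55. The factor that rose among the 10 genes was thus the least abundant of the family at the RNA level.

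**Figure D2:**
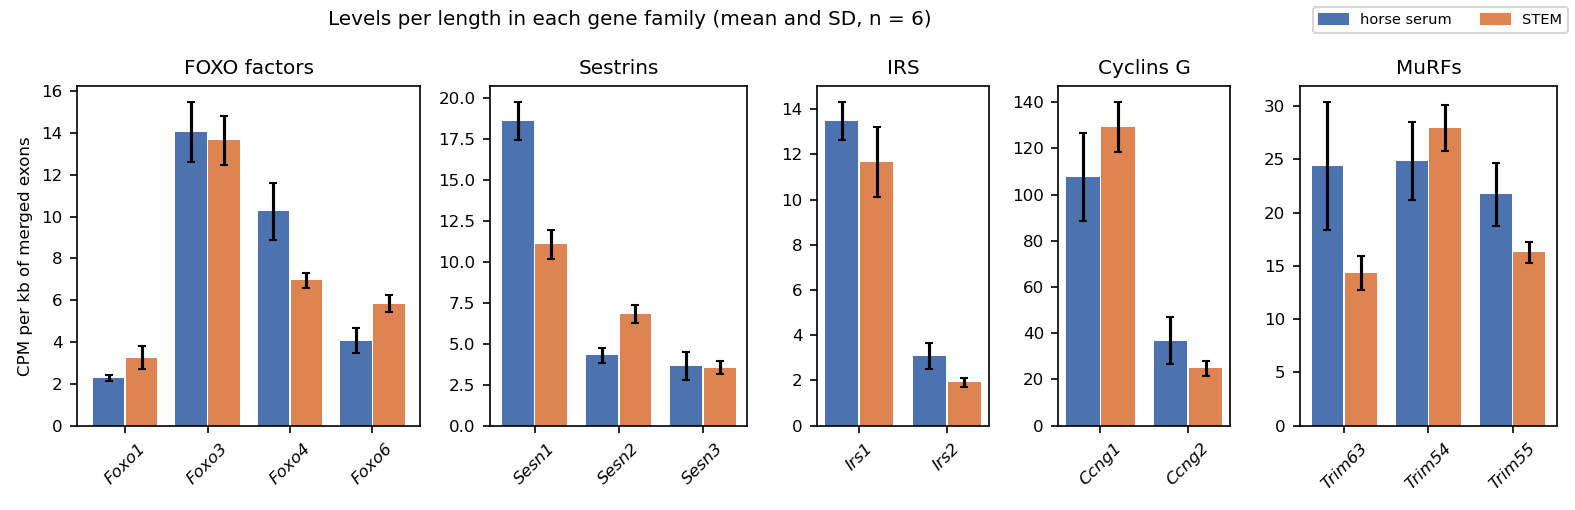
Levels in CPM per kb of merged exons (y axes from 0) of the FOXO factors, sestrins, IRS genes, cyclins G and MuRF ligases in horse serum and STEM; bars are means and error bars SD of 6 libraries. Foxo1, Foxo6 and Sesn2 stand higher with STEM, and Foxo4, Sesn1, Irs2 and Trim63 lower.

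The ubiquitin ligases of atrophy diverged. Fbxo32 (ENSMUSG00000022358, chromosome 15, 58175879 to 58214932) encodes the F-box subunit that directs an SCF ligase to its substrates in muscle. It was between 102 and 133 CPM with horse serum (median 126) and between 103 and 126 CPM with STEM (median 112). The ranges overlapped almost fully, and horse serum library 1, not library 6, was the lowest of its group. STEM moved Fbxo32 by -0.11 on the log2 scale (95% interval -0.25 to 0.03, adjusted p = 0.221 in edgeR), which did not pass the test, and without library 6 it was -0.13 (-0.27 to 0.003, adjusted p = 0.0964).

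Trim63 (ENSMUSG00000028834, chromosome 4, 134315120 to 134329629) encodes a RING-finger ligase that binds the sarcomere and ubiquitinates thick filament proteins. Its lowest, median and highest values were 35.6, 74.2 and 83.8 CPM with horse serum and 35.5, 40.7 and 47.0 CPM with STEM. Horse serum libraries 1 to 5 were all at 71.6 CPM or more, above every STEM library, and library 6 alone fell inside the STEM range. Trim63 fell with a log2 fold change of -0.76 (standard error 0.17, 95% interval -1.12 to -0.40, adjusted p = 0.00347 in edgeR), and without library 6 it was -0.89 (standard error 0.067, adjusted p = 9.27e-09). Trim63 is expressed in myotubes, and in such bulk RNA a smaller share of myotubes and less of the RNA in each cannot be told apart. The summed myotube markers, given above, were low in library 6 and overlapped between STEM and horse serum libraries 1 to 5. Of the 15 markers taken singly, 3 were called with all libraries (1 higher and 2 lower, 20% against 36.4% of all tested genes). Without library 6 there were 10 (66.7% against 50.8%), 9 lower and 1 higher, with a median log2 fold change of -0.25. Among those lower without library 6 were the myosin heavy chain genes Myh8 (log2 fold change -1.48) and Myh2 (-0.78), the light chain gene Mylpf (-0.38) and the myogenic factor gene Myog (-0.30), while the myosin heavy chain gene Myh4 was higher (1.05). The part of these markers in the value of Trim63 was not tested. The log2 ratio of Fbxo32 to Trim63 rose from 0.85 ± 0.42 to 1.47 ± 0.18 (SD, n = 6, adjusted p = 0.0152 in a two-sided exact permutation test). In library 6 this ratio was 1.65, and without that library the ratio rose by 0.77 (exact permutation test, adjusted p = 0.0026).

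Of the 2 other MuRF genes, Trim55 (MuRF2) fell, from 57.8 ± 7.91 CPM to 43.2 ± 2.52 CPM (SD, n = 6, log2 fold change -0.42, adjusted p = 0.00132 in edgeR), and Trim54 (MuRF3) was at 35.6 and 40.1 CPM (adjusted p = 0.142 in edgeR). Trim55 and Trim54 are among a list of 18 other ligases known in muscle, of which 4 were called, 3 higher and 1 lower, or 22.2% against 36.4% of all tested genes. Their median log2 fold change was -0.01. The largest change on this list was that of Fbxo40, a muscle F-box gene whose product is known to target IRS1, which rose from 10.01 ± 3.53 CPM to 29.4 ± 4.04 CPM, a change of 1.56 on the log2 scale (standard error 0.23, adjusted p = 2.02e-04 in edgeR). Its horse serum libraries ranged from 3.79 CPM in library 6 to 14.0 CPM and its STEM libraries from 23.7 to 34.4 CPM, with no overlap. Mdm2 (log2 fold change 0.31) and Ubr2 (0.21) also rose (adjusted p = 3.61e-04 and 0.0184 in edgeR). Without library 6, 7 of the 18 ligases were called, 3 higher and 4 lower, or 38.9% against 50.8% of all tested genes.

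The start regions of the 10 genes were searched for GTAAACA, the core of the sequence that FOXO proteins bind, on both strands and with no other motif. RefSeq promoters of GRCm38.p6, running from 250 bases before to 50 bases after a start site, were at hand for 8 of the 10 genes (all but Fbxo32 and Klhl24). The core was present in 3 of the 8, Trim63, Txnip and Sesn1, and in 4.05% of 27025 genes with a promoter of the same length. In the lists of other FOXO-induced genes described below it was present in 0 of the 9 autophagy genes with a promoter and in 1 of the other 14, Bcl2l11. It was also present in 1 of 14 other muscle ligases (Mdm2) and in 1 of 21 genes of the insulin and IGF pathway (Akt1), which both rose with STEM. Of 7 glucocorticoid-induced genes 1 held it, Klf9, which fell, and of 10 paralogs 0 did. The promoters of Trim63, Txnip and Sesn1 are shown because they carry the letters and their genes fell with STEM. The core (or its reverse complement TGTTTAC) is in capitals, and each sequence is written 5′ to 3′ on the strand of the gene. They are chr4:134314870-134315169 (plus strand) for Trim63, chr3:96557707-96558006 (plus strand) for Txnip and chr10:41810324-41810623 (plus strand) for Sesn1.
Trim63: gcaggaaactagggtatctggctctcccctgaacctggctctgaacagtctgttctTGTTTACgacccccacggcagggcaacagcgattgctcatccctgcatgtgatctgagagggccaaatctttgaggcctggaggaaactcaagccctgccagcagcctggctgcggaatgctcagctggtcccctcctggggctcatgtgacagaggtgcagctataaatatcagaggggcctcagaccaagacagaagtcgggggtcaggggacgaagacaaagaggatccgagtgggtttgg
Txnip: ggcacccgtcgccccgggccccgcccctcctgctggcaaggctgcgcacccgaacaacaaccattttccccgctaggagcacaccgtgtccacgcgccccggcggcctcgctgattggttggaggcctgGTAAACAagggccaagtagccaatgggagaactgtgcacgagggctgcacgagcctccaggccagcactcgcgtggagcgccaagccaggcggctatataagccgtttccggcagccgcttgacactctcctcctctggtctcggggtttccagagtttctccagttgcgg
Sesn1: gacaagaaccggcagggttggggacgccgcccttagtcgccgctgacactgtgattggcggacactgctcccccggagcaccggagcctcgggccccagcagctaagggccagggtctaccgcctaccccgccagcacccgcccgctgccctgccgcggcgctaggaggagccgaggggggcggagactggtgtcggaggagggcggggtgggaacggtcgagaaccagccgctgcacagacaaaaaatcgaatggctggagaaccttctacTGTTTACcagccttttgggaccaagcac
The first of the capital letters lay at -194 in Trim63 and at -121 in Txnip, before the start site, and at 23 in Sesn1, after it. The core read in the direction of the gene in Txnip and on the opposite strand in the other two. A second listed start of Sesn1 and the windows of Foxo1, Foxo3, Pik3ip1, Ccng2 and Irs2 did not hold these 7 letters. A match describes the sequence only, and no binding was measured.

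Txnip (ENSMUSG00000038393, chromosome 3, 96557957 to 96561883) encodes the thioredoxin-interacting protein, an alpha-arrestin that restrains glucose uptake. Its lowest, median and highest values were 120, 296 and 314 CPM with horse serum and 114, 126 and 142 CPM with STEM. Horse serum libraries 1 to 5 lay within a narrow band from 284 to 314 CPM, while library 6 lay among the STEM libraries. With all libraries the log2 fold change was -1.08 (standard error 0.19, 95% interval -1.50 to -0.66, adjusted p = 9.43e-04 in edgeR), and without library 6 it was -1.23 (standard error 0.049, adjusted p = 7.28e-13). Txnip was the most abundant of the 10 genes per length, at 86.2 ± 23.7 CPM per kb with horse serum and 40.7 ± 3.24 with STEM (SD, n = 6). An antisense gene, Gm15441, shares 19.4% of its exon bases, and the sources used here do not say whether the counting used the strand. Gm15441 itself had at most 10 counts in any library. Antisense genes also share between 2.13% and 7.78% of the exon bases of Foxo1, Fbxo32, Pik3ip1 and Irs2, and none of these had more than 15 counts. Of the related alpha-arrestins, Arrdc1 fell (log2 fold change -0.29, adjusted p = 0.0398 in edgeR), and Arrdc2 and Arrdc3 did not pass the test with all libraries (adjusted p = 0.551 and 0.713). Library 6 was the lowest control for Arrdc3, at 44.8 CPM against 91.4 to 100.3 CPM in libraries 1 to 5. Without library 6 Arrdc3 was called lower (log2 fold change -0.22, adjusted p = 0.0182 in edgeR). Arrdc4 had at most 20 counts and did not pass the filter.

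Sesn1 (ENSMUSG00000038332, chromosome 10, 41809935 to 41908424) encodes sestrin 1, a stress-induced inhibitor of mTORC1. It was between 67.5 and 80.4 CPM with horse serum (median 74.8) and between 38.5 and 48.0 CPM with STEM (median 44.3). The groups were well apart, and library 6, though lowest of its group, was far above the STEM libraries. Sesn1 fell with a log2 fold change of -0.75 (95% interval -0.88 to -0.62, adjusted p = 4.69e-07 in edgeR), and with -0.77 without library 6. The other sestrins did not follow it. Sesn2, known as an ATF4 and p53 target, rose from 14.9 ± 1.65 CPM to 23.6 ± 1.95 CPM (SD, n = 6, log2 fold change 0.66, adjusted p = 2.56e-05 in edgeR), without overlap. Sesn3, a FOXO target in muscle, was at 55.7 ± 13.3 CPM and 54.0 ± 6.22 CPM (adjusted p = 0.804, 95% interval of the log2 fold change -0.33 to 0.23). The log2 ratio of Sesn1 to Sesn3 fell by 0.73 (exact permutation test, two-sided, adjusted p = 0.013, n = 6 per group). Per length Sesn1 was the most abundant sestrin in both groups, at 18.6 and 11.1 CPM per kb, with Sesn2 at 4.28 and 6.79 and Sesn3 at 3.65 and 3.54.

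Both genes of the 10 that act directly on insulin signalling fell. Pik3ip1 (ENSMUSG00000034614, chromosome 11, 3330401 to 3342971) encodes a membrane protein that inhibits PI3K. Its lowest, median and highest values were 42.3, 55.5 and 59.0 CPM with horse serum and 22.8, 25.8 and 28.3 CPM with STEM. No STEM library came near the horse serum range, library 6 being the lowest control. Pik3ip1 fell with a log2 fold change of -1.06 (standard error 0.079, 95% interval -1.23 to -0.90, adjusted p = 2.33e-07 in edgeR), the lowest p of the 10 genes, and it was -1.13 without library 6.

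Irs2 (ENSMUSG00000038894, chromosome 8, 10984681 to 11008458) encodes an adaptor that couples the insulin and IGF1 receptors to PI3K. It was between 14.1 and 24.2 CPM with horse serum (median 20.6) and between 11.1 and 13.9 CPM with STEM (median 11.6). The groups did not overlap but nearly met, the lowest control being library 1 and the highest library 6. Irs2 fell by 0.69 on the log2 scale (95% interval -0.93 to -0.44, adjusted p = 3.47e-04 in edgeR), and by 0.61 without library 6. Irs1 also fell, by less, from 123 ± 7.67 CPM to 107 ± 14.1 CPM (SD, n = 6, log2 fold change -0.21, adjusted p = 0.0458 in edgeR), and it did not pass the test without library 6 (adjusted p = 0.0716). The log2 ratio of Irs2 to Irs1 fell by 0.44 (exact permutation test, two-sided, adjusted p = 0.013, n = 6 per group). Irs1 was the more abundant per length, at 13.5 and 11.7 CPM per kb against 3.08 and 1.93 for Irs2.

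Klhl24 (ENSMUSG00000062901, chromosome 16, 20097542 to 20129221) encodes a substrate adaptor of cullin 3 ubiquitin ligases. It was between 230 and 349 CPM with horse serum (median 342) and between 179 and 206 CPM with STEM (median 194). Libraries 1 to 5 lay between 327 and 349 CPM, and library 6 lay between them and the STEM libraries. Klhl24 fell by 0.75 on the log2 scale (95% interval -0.93 to -0.56, adjusted p = 1.98e-05 in edgeR), and by 0.83 without library 6 (standard error 0.042, adjusted p = 2.64e-11).

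Ccng2 (ENSMUSG00000029385, chromosome 5, 93267257 to 93276231) encodes cyclin G2, an atypical cyclin that goes with cell cycle arrest. Its lowest, median and highest values were 91.4, 215 and 246 CPM with horse serum and 117, 128 and 166 CPM with STEM. Library 6 was below every STEM library, while libraries 1 to 5, at 206 CPM or more, were above every one of them. Ccng2 fell with a log2 fold change of -0.56 (standard error 0.20, 95% interval -0.99 to -0.14, adjusted p = 0.0414 in edgeR), and without library 6 it was -0.71 (standard error 0.086, adjusted p = 2.56e-05). With library 6 kept, the call was lost when any of 10 of the other 11 libraries, all but STEM library 8, was left out (adjusted p up to 0.0903) and with limma-voom (adjusted p = 0.0593). Its relative Ccng1, known as a p53 target, was at 378 ± 66.5 CPM and 454 ± 37.9 CPM (SD, n = 6, log2 fold change 0.26, adjusted p = 0.0773 in edgeR). All 6 STEM libraries were above every horse serum library for Ccng1, library 6 was the lowest at 246 CPM, and without library 6 Ccng1 was called higher (log2 fold change 0.16, adjusted p = 0.0127). The log2 ratio of Ccng2 to Ccng1 fell by 0.79 (exact permutation test, two-sided, adjusted p = 0.00866, n = 6 per group).

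**Figure D3:**
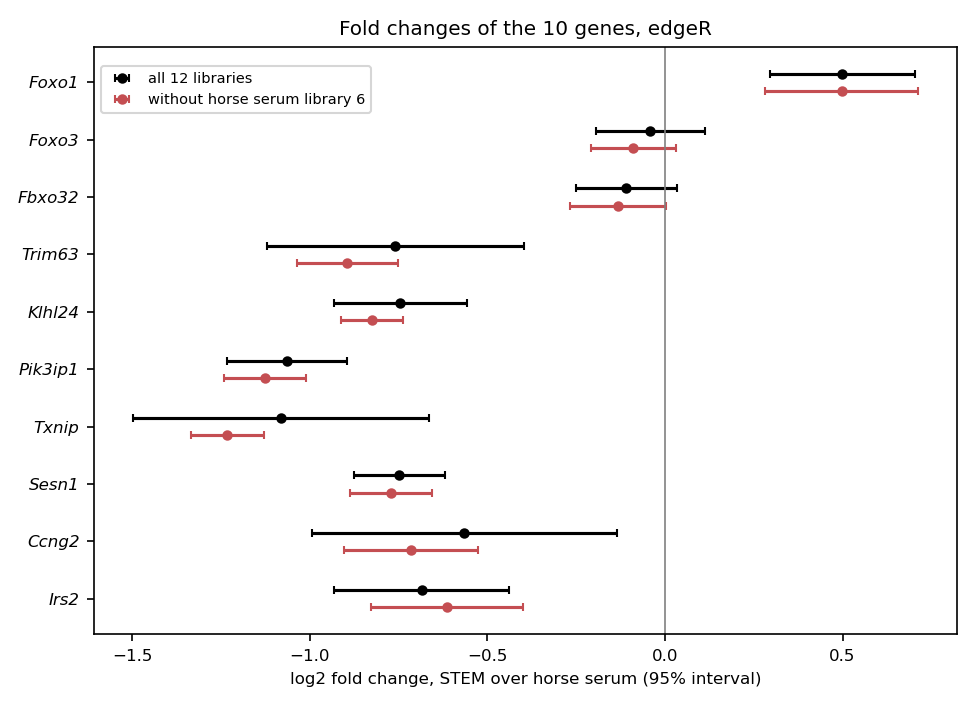
Log2 fold change of each gene, STEM over horse serum, with its 95% interval from edgeR (x axis), from all 12 libraries (black) and without horse serum library 6 (red). Only Foxo1 lies to the right of 0, the intervals of Foxo3 and Fbxo32 span 0 in both fits, and those of Trim63, Txnip and Ccng2 narrow most without library 6 (standard errors from 0.17, 0.19 and 0.20 to 0.067, 0.049 and 0.086).

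Horse serum library 6 divided the 10 genes. Relative to the mean of the other 5 horse serum libraries, its log2 CPM ratio was -1.32 for Txnip, -1.28 for Ccng2, -1.09 for Trim63, -0.57 for Klhl24 and -0.41 for Pik3ip1. It was -0.31 for Foxo3, -0.16 for Sesn1, -0.15 for Fbxo32, 0.00 for Foxo1 and 0.38 for Irs2. In this library Txnip, Ccng2 and Trim63 were thus as low as with STEM or lower, whereas Foxo1 and Fbxo32 lay within the other controls, Sesn1 just below them and Irs2 above them. The summed CPM of the 10 genes was between 1326 and 1362 in horse serum libraries 1 to 5, 831 in library 6 and between 756 and 901 with STEM.

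**Figure D4:**
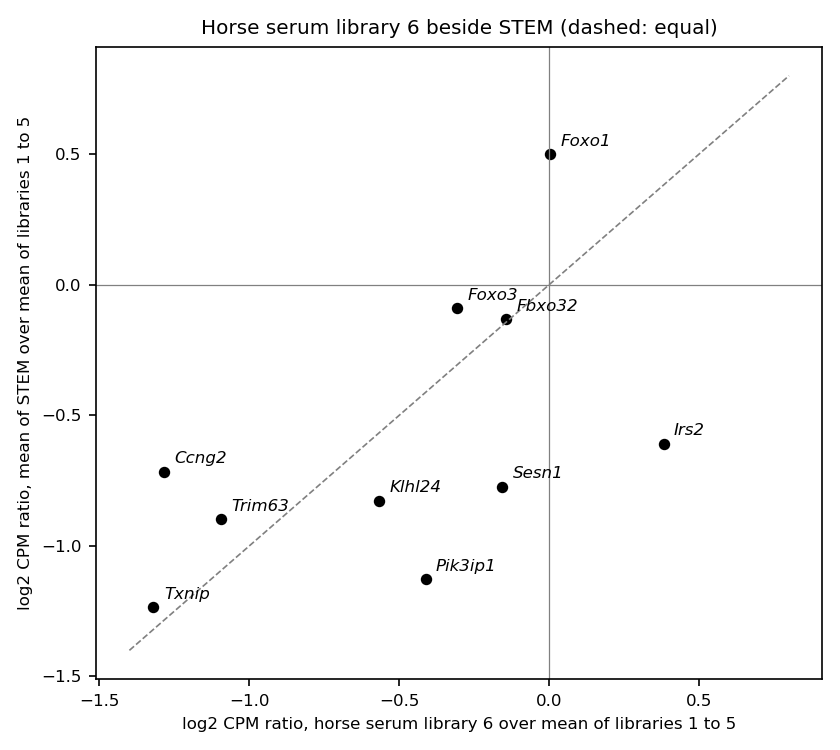
For each of the 10 genes, the log2 CPM ratio of horse serum library 6 (x axis) and of the STEM mean (y axis) to the mean of horse serum libraries 1 to 5; the dashed line marks equal ratios. Txnip, Trim63 and Ccng2 lie at or left of the line, near -1.32, -1.09 and -1.28 on the x axis, whereas Pik3ip1, Sesn1 and Irs2 lie well to its right and Foxo1 above it at 0.

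Of 12 tested paralogs of the 10 genes, 6 were called (50% against 36.4% of all tested genes), 2 higher (Foxo6 and Sesn2) and 4 lower (Foxo4, Trim55, Arrdc1 and Irs1), with a median log2 fold change of -0.06. Without library 6 there were 7 (58.3% against 50.8%). In order of level per length, horse serum myotubes ran from Txnip through Ccng2 (36.8 CPM per kb), Klhl24 (31.7), Trim63 (24.4), Sesn1 (18.6), Fbxo32 (17.4), Foxo3 (14.1), Pik3ip1 (12.6) and Irs2 (3.08) to Foxo1 (2.30). The ranges of neighbours overlapped throughout, apart from the gap between Pik3ip1 and Irs2. From Txnip to Sesn1 the overlaps came from library 6 alone. In horse serum libraries 1 to 5 Txnip was at 91.1 CPM per kb or more and Ccng2 between 37.7 and 45.1. Klhl24 was between 32.1 and 34.3 in those libraries, Trim63 between 25.2 and 29.5 and Sesn1 at 20.2 or less. With STEM the order was Txnip (40.7), Ccng2 (24.8), Klhl24 (18.9), Fbxo32 (16.2), Trim63 (14.3), Foxo3 (13.7), Sesn1 (11.1), Pik3ip1 (6.04), Foxo1 (3.25) and Irs2 (1.93). Here the ranges of Klhl24, Fbxo32, Trim63 and Foxo3 overlapped with their neighbours in this order, and the other neighbours were apart. Fbxo32 stood ahead of Trim63 with STEM, although their ranges overlapped, and Foxo1 ahead of Irs2 without overlap.

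The remaining pathway was described with lists of genes known to be induced by FOXO proteins. Of 16 tested genes outside autophagy, 7 were called, 6 lower and 1 higher with STEM, or 43.8% against 36.4% of all tested genes, with a median log2 fold change of -0.14. Those that fell with the lowest p-values were Cited2, a transcriptional co-regulator, Pdk4, which holds back pyruvate oxidation, and Rictor, a subunit of mTORC2. Cited2 went from 30.2 ± 2.71 CPM to 18.9 ± 2.07 CPM, Pdk4 from 21.7 ± 1.98 CPM to 13.1 ± 1.66 CPM and Rictor from 103 ± 3.08 CPM to 82.6 ± 3.66 CPM (SD, n = 6, adjusted p = 2.16e-05, 2.49e-05 and 4.03e-05 in edgeR), each without overlap. Cat, the gene of catalase, rose (log2 fold change 0.34, adjusted p = 7.5e-04 in edgeR). Without library 6, 7 of the 16 were again called, 6 lower and 1 higher, or 43.8% against 50.8% of all tested genes.

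Of 13 autophagy genes, 5 were called, 4 lower and 1 higher, or 38.5% against 36.4% of all tested genes, with a median log2 fold change of -0.09. Atg12 (log2 fold change -0.32), the cathepsin gene Ctsl (-0.41) and Map1lc3b (-0.22), the gene of LC3B, fell, and the protease gene Atg4b rose (0.15, adjusted p = 0.047 in edgeR). Without library 6, 8 of the 13 were called, 6 lower and 2 higher (61.5%), and 3 were called without horse serum library 1, 2, 4 or 5 or STEM library 7, 8 or 10. The share of all tested genes moved the same way, to 50.8% without library 6 and to between 31.2% and 33.6% without any 1 of the others.

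Of 24 genes from the insulin and IGF1 receptors to AKT and mTOR, 16 were called (66.7% against 36.4% of all tested genes), 8 higher and 8 lower, with a median log2 fold change of -0.04. Without library 6, 16 of the 24 were again called, 8 higher and 8 lower, but against 50.8% of all tested genes. The lowest count, 11 of the 24, came without horse serum library 2, where 31.2% of all tested genes were called. Members of a gene family moved in opposite directions here as well. Of the PI3K regulatory subunits, Pik3r1 fell from 81.3 ± 2.87 CPM to 64.4 ± 2.16 CPM, while Pik3r2 rose from 82.2 ± 2.22 CPM to 103 ± 4.60 CPM (SD, n = 6, adjusted p = 2.02e-05 and 3.37e-05 in edgeR) and Pik3r3 rose with a log2 fold change of 0.43. Akt1, the gene of a kinase that phosphorylates FOXO proteins, rose (log2 fold change 0.25, adjusted p = 5.31e-04 in edgeR), and Akt2 was at 183 and 185 CPM (adjusted p = 0.91). The receptor genes Insr and Igf1r did not pass the test (adjusted p = 0.0886 and 0.419 in edgeR).

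Glucocorticoids are also known to induce Foxo1, Fbxo32 and Trim63 in muscle, and 7 genes of the glucocorticoid response could be tested. Of these 5 were called (71.4% against 36.4% of all tested genes), 4 lower and 1 higher, and 3 were called without horse serum library 1, 4 or 5 or STEM library 9, 10 or 11, where between 31.3% and 33.2% of all tested genes were. Klf9 (log2 fold change -0.32), Tsc22d3 (-0.44) and Per1 (-0.53) fell and Sgk1 rose (0.23), with adjusted p of 3.79e-04, 0.00177, 0.00705 and 0.0456 in edgeR. Fkbp5 did not pass the test (23.9 and 26.4 CPM, adjusted p = 0.249) with all libraries. Library 6 was its highest control at 31.9 CPM, and without it Fkbp5 rose (log2 fold change 0.24, adjusted p = 0.00102 in edgeR), with all STEM libraries above horse serum libraries 1 to 5. Zbtb16 had no counts.

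**Figure D5:**
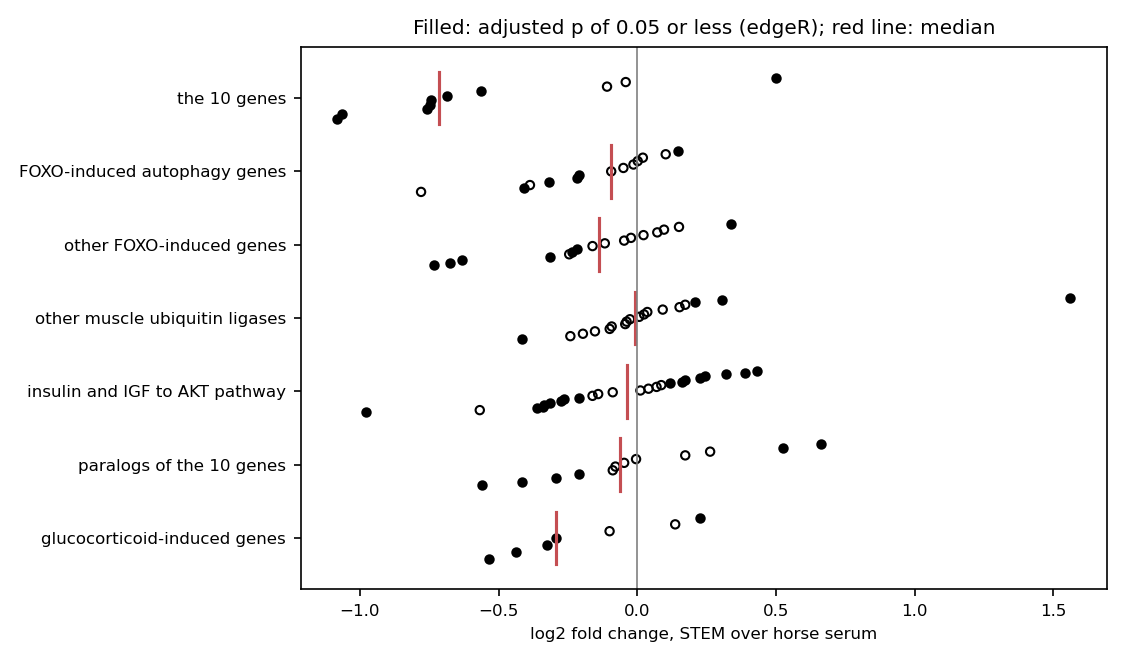
Log2 fold changes, STEM over horse serum (x axis), of the 10 genes and of each list of related genes; points are genes, filled at an adjusted p of 0.05 or less in edgeR, and the red line is the median of the list. The 10 genes have a median of -0.71 and the lists between -0.29 and -0.01, and Fbxo40 is the point at 1.56.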

How the data were processed

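RNA of 12 C2C12 libraries, 6 per medium, was sequenced by the authors as stranded total RNA depleted of ribosomal RNA. The authors deposited raw counts of reads per Ensembl gene without normalization, and the submitters' processing notes name STAR 2.7.3a, featureCounts 1.6.3, DESeq2 1.26.0 and GRCm38. The strand setting of the counting was not given in the sources used here. Libraries were grouped by their labels. Genes were tested with edgeR 4.0.16 in R 4.3.3 (TMM, filterByExpr, glmQLFit with robust estimation, glmQLFTest) and called at an adjusted p of 0.05 or less. Gene pairs were compared by exact permutation of the log2 CPM difference (prior count of 2), adjusted over 6 pairs; the pair of Txnip and Arrdc4 could not be tested because Arrdc4 did not pass the filter. The fits were tested on simulated data in which few genes were changed and no library stood apart, unlike in these data. Alternatives were DESeq2 1.42.0, limma-voom (limma 3.58.1), other normalizations and filters, and leaving out each library. Symbols, coordinates and merged exon lengths came from GENCODE M21 and promoters from RefSeq GRCm38.p6. The 10 genes, the lists and the pairs were chosen with earlier results of these data known. Besides the 10 genes and the pairs, up to 3 called genes per list and direction with the lowest p-values are named, and a gene that meets this rule is not reported here; Trim54, Arrdc2, Arrdc3, Arrdc4, Akt2, Insr, Igf1r, Fkbp5, Zbtb16, Bcl2l11, Myh2, Mylpf and the markers of other cell types were added after their values were seen. Libraries of a group differed by more than sampling noise (chi-square over its degrees of freedom from 3.54 to 76.6).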

Additional observations from a re-analysis of the deposited data

Results flagged for a closer look

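In groups of 6 libraries, a library was taken to stand apart when its gap to the nearest other library, over the group's range, exceeded Dixon's 95% critical value. Of 88 groups checked (38 genes and 6 ratios in both media), 14 did so, where chance gives about 5%, and 11 of the 14 were horse serum library 6. For the 10 genes, library 6 stood apart for Trim63 (35.6 CPM, others 71.5 to 83.8), Klhl24 (230 CPM, others 327 to 349), Txnip (120 CPM, others 284 to 314) and Ccng2 (91.4 CPM, others 206 to 246).

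Among the related genes, library 6 stood apart low for Ccng1 (246 CPM), Klf9 (75.0 CPM) and Tsc22d3 (93.4 CPM) and high for Sesn3 (81.3 CPM) and Pik3r3 (27.4 CPM). Its log2 ratio of Fbxo32 to Trim63 was high (1.65, others 0.42 to 0.87), and its ratio of Sesn1 to Sesn3 was low (-0.27, others 0.42 to 0.83). STEM library 12 was high for Ccng1 (528 CPM, others 419 to 448) and Sesn3 (65.6 CPM, others 48.2 to 54.1). Horse serum library 3 was high for Mdm2 (74.1 CPM, others 63.2 to 66.8).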

How the results depend on the processing

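The count of called genes among the 10 was 7 or 8 (6 or 7 lower with STEM) under each of the 6 other normalizations, filters and tools and with each library left out, and Ccng2 was the gene that was lost. It was lost without the filter on low counts (adjusted p = 0.11), with limma-voom and with any of 10 libraries left out. The other 9 genes kept their direction and their side of the threshold in all these alternatives, as did the 6 gene pairs with a prior count of 0.5 and with each library left out. With each library left out in turn, 3 to 8 autophagy genes, 4 to 7 of the other ligases and 3 to 6 glucocorticoid-induced genes were called, and without the filter on low counts 3 autophagy genes were called. The highest of these counts came without horse serum library 6, where 50.8% of all tested genes were called. The share was 31.2% to 33.6% without any other library and 15.7% without the filter, and the cause was not tested. In the remaining lists, 11 to 16 insulin and IGF pathway genes, 4 to 7 paralogs and 6 to 8 other FOXO-induced genes were called with each library left out. No paired analysis was possible because the labels number horse serum libraries 1 to 6 and STEM libraries 7 to 12, so that the groups share no number. Depth limits Irs2 and Foxo1 most, with 175 to 585 counts per library.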
